A study of Mus musculus with 16 samples.

Results

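Testosterone propionate and estradiol were set against each other in the caput epididymis of castrated mice. The comparison rests on 2 arrays of caput from mice given testosterone propionate and 2 arrays of caput from mice given estradiol, chosen by their labels, 4 of the 16 arrays of the series. The animals of all groups were adult male 129BL/6 mice with no genetic alteration named in the labels. The hormone groups were castrated, left for 14 days and injected with 0.015 mg testosterone propionate or 0.015 mg estradiol in 100 µL of 10% ethanol in sesame oil. Tissue was taken 12 hours after the injection. A castrated group and a sham-operated group, 2 caput arrays each, had the oil vehicle alone on the same schedule, so every caput group received the vehicle and the estradiol group as well as the testosterone propionate group lacked its testes. The other 8 arrays are from the efferent duct under the same 4 treatments. The labels do not say that duplicate arrays came from separate animals, so p-values measure the spread between these samples only.

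The caput is the first large region of the epididymis, where principal cells secrete proteins into the lumen that bathe and coat the sperm. Testosterone reaches these cells from blood and testicular fluid and acts through a nuclear receptor, a transcription factor that binds DNA after the hormone enters the cell. Estradiol acts mainly through the estrogen receptors alpha and beta, and the tissue can make estradiol from testosterone by aromatase. The 2 steroids share a ring skeleton. Testosterone carries a ketone on its first ring, while the first ring of estradiol is aromatic with a phenolic hydroxyl group, and testosterone propionate is the propionate ester of testosterone, which is cleaved in the body. The doses match by mass and not by number of molecules, and 1 pair of compounds was compared.

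Of 18194 genes measured, 13508 had a mean intensity above 16 in the testosterone propionate group or the estradiol group. Limma called 386 of all genes (2.12%). Among those above 16, 352 genes (2.61%) passed limma's adjusted p of 0.05 in a fit of all 8 caput arrays. After testosterone propionate 188 genes (1.39%) were higher than after estradiol and 164 (1.21%) were lower. The difference was at least 1 on the log2 scale for 147 of the higher and 141 of the lower genes, and at least 3 for 14 and 16. The arrays of the groups did not overlap for any of the 352 genes, against 54.6% of all genes above 16. The count hung on each hormone array: without the first testosterone propionate array or the second estradiol array 0 genes passed, without the second testosterone propionate array 9 and without the first estradiol array 4. It was 80 without either castrated array, 20 without either sham array and 0 in a fit of the 4 hormone arrays alone, and 2744 genes above 16 had an unadjusted p under 0.05. Ankrd6, Eppin, Hpdl, Lypd8, Smarcd3, Spink10 and Upk1a passed without the second testosterone propionate array, and Cad, Hpdl and Wfdc6a without the first estradiol array.

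**Figure D1:**
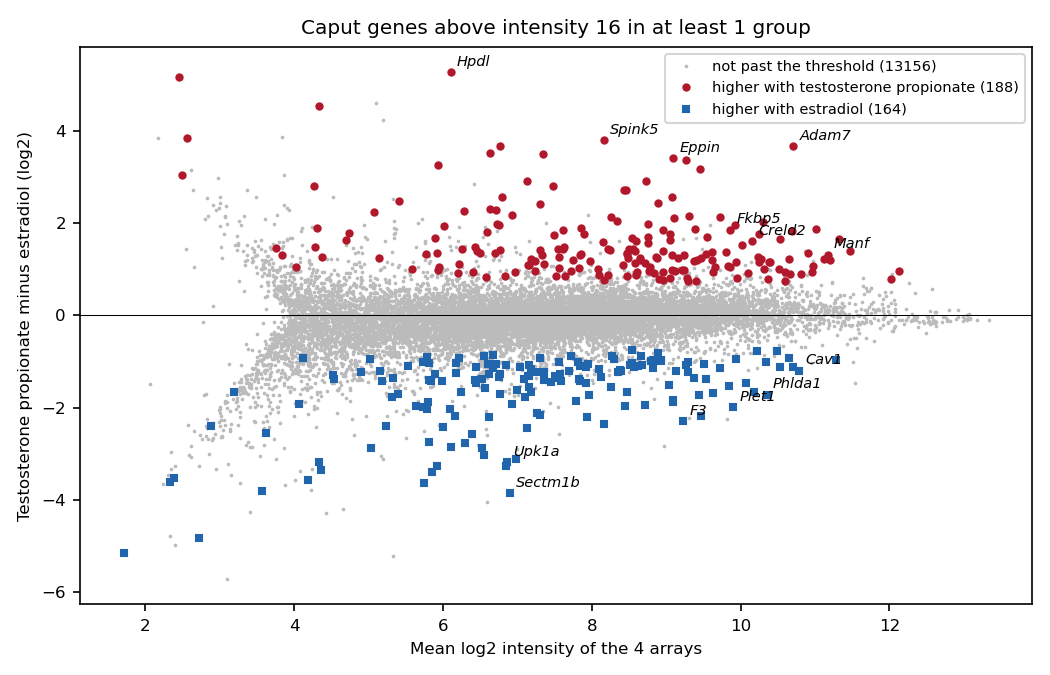
Each point is a gene with a mean intensity above 16 in at least 1 of the 2 hormone groups, with its mean log2 intensity over the 2 testosterone propionate and 2 estradiol arrays on the x axis and the log2 difference, testosterone propionate minus estradiol, on the y axis. Red circles mark the 188 genes past the threshold that were higher with testosterone propionate, blue squares the 164 that were lower, and grey dots the other genes; the coloured points lie on both sides of 0 from dim to bright genes.

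Array quality differed little but in a fixed direction between the groups. For actin, the ratio of 3' to 5' probe signal, a measure that climbs as transcripts are shortened, was 1.08 and 1.20 (log2) on the testosterone propionate arrays and 0.877 and 1.02 on the estradiol arrays. That of Gapdh was -0.207 and -0.140 on the testosterone propionate arrays and -0.367 and -0.329 on the estradiol arrays, with no overlap in either ratio. Every caput array had a trimmed mean of 125.001 in intensity, and 70.0% to 73.1% of genes stood above 16 on these 4 arrays. The median difference over all 18194 genes was -0.06 on the log2 scale. The part of transcript integrity in the results was not tested.

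The largest rises among genes measured above 16 on all 4 arrays included secreted and surface proteins of the epididymal epithelium. Adam7, a membrane protein of principal cells that is passed to sperm, had 5299.9 and 6705 in intensity on the testosterone propionate arrays and 449.7 and 492 on the estradiol arrays. It was 12.7-fold higher (95% interval 8.97 to 17.9, adjusted p = 0.0104). The castrated vehicle arrays stood at 219 and 291 and the sham arrays at 8643 and 8372, so the testosterone propionate arrays lay near the sham level and the estradiol arrays nearer the castrated one. In whole tissue, fewer cells of a type and less RNA per cell cannot be told apart. Lcn12, a lipocalin that carries small lipophilic molecules, had 366 and 413 after testosterone propionate and 38.1 and 24.7 after estradiol. It was 12.7-fold higher (95% interval 8.27 to 19.4, adjusted p = 0.0131), and the sham arrays were higher still at 2003 and 1773. Lypd8, a membrane-anchored protein known in the mouse colon for keeping flagellated bacteria off the epithelium, had 287 and 393 after testosterone propionate and 31.6 and 27.3 after estradiol. It was 11.4-fold higher (95% interval 8.23 to 15.9, adjusted p = 0.0104) and remained far under its sham values of 7389 and 7833.

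Of 29 measured genes of the list of caput and initial segment secretory proteins, 4 rose with testosterone propionate over estradiol, 1 fell and 24 did not pass. The share called was 17.2%, beside 2.12% of all genes. The median difference of the list was 0.20 (log2), beside -0.06 over all genes, and single genes ranged from -1.31 to 3.85. The fourth riser was Defb41, a beta-defensin, with 2028 and 3150.1 against 633 and 617. Ros1, a receptor tyrosine kinase needed in the initial segment for male fertility in mice, fell to 106 and 126 after testosterone propionate, against 265 and 309 after estradiol (log2 difference -1.31, adjusted p = 0.0365). Several defining products of the region did not pass. Gpx5, the secreted epididymal glutathione peroxidase, had 3648 and 4722 against 4141 and 2989.9, a log2 difference of 0.24 with a 95% interval of -0.31 to 0.78. Rnase10, a secreted protein of the proximal caput, had 59.3 and 67.3 against 67.8 and 92.6, with an interval of -0.84 to 0.18, while its sham arrays stood at 10312 and 9692. Lcn8 had 36.4 and 56.2 against 18.4 and 60.4, far under its sham arrays of 9349.5 and 8970.3, and Lcn5 had 1402 and 3042 against 2140.4 and 616. The Lcn5 and Lcn8 intervals, -0.82 to 2.51 and -1.26 to 2.15 on the log2 scale, were too wide to show whether the hormones differed by several fold.

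Beta-defensins, small antimicrobial peptides that also coat sperm, were measured for 16 genes, of which 3 rose with testosterone propionate over estradiol and none fell past the threshold. That is a share of 18.75%, beside 2.12% of all genes. Their median difference was 0.81 on the log2 scale and 14 of the 16 differences were positive, where 44.1% of all genes had a positive one. Defb21 had 118 and 136 after testosterone propionate and 34.8 and 31.5 after estradiol, and was 3.82-fold higher (95% interval 2.74 to 5.33, adjusted p = 0.0228). Its sham arrays stood far higher, at 3757 and 3664. Its castrated arrays, at 86.3 and 118, lay close to the testosterone propionate arrays and not to the estradiol arrays. Defb1, an epithelial defensin, had the same order of hormone and castrated arrays, with 1033 and 1141 against 478 and 440.0 and 1024 and 891 on the castrated arrays. The fold for Defb1 was 2.37 (adjusted p = 0.0371).

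Protease inhibitors held some of the largest rises of the comparison. Of 30 measured members 4 rose and none fell past the threshold, a share of 13.3% beside 2.12% of all genes. The median difference was -0.09, with 16 of the 30 negative. Spink5, an inhibitor of epithelial kallikreins, had 1092 and 1037 after testosterone propionate and 85.7 and 69.2 after estradiol, and was 13.8-fold higher (95% interval 9.04 to 21.1, adjusted p = 0.0131). Eppin, an inhibitor that coats the sperm surface, had 1779.7 and 1782 against 174 and 160.0 and was 10.7-fold higher (95% interval 8.53 to 13.3, adjusted p = 0.00681). Its castrated arrays at 201 and 219 were above both estradiol arrays. Spink10, a Kazal-type inhibitor, had 945 and 822 against 133 and 137 and was 6.53-fold higher (95% interval 5.23 to 8.15, adjusted p = 0.00748). Here the estradiol arrays were also above the castrated arrays, which stood at 35.1 and 38.4. Wfdc6a, which has a whey acidic protein domain, had 2247 and 1976 against 319.9 and 173, and its castrated arrays lay in between at 574 and 577. Spink4 had the lowest difference of the list at -4.25, on estradiol arrays of 60.2 and 35.7 with both testosterone propionate arrays below 16, and did not pass (adjusted p = 0.0543).

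**Figure D2:**
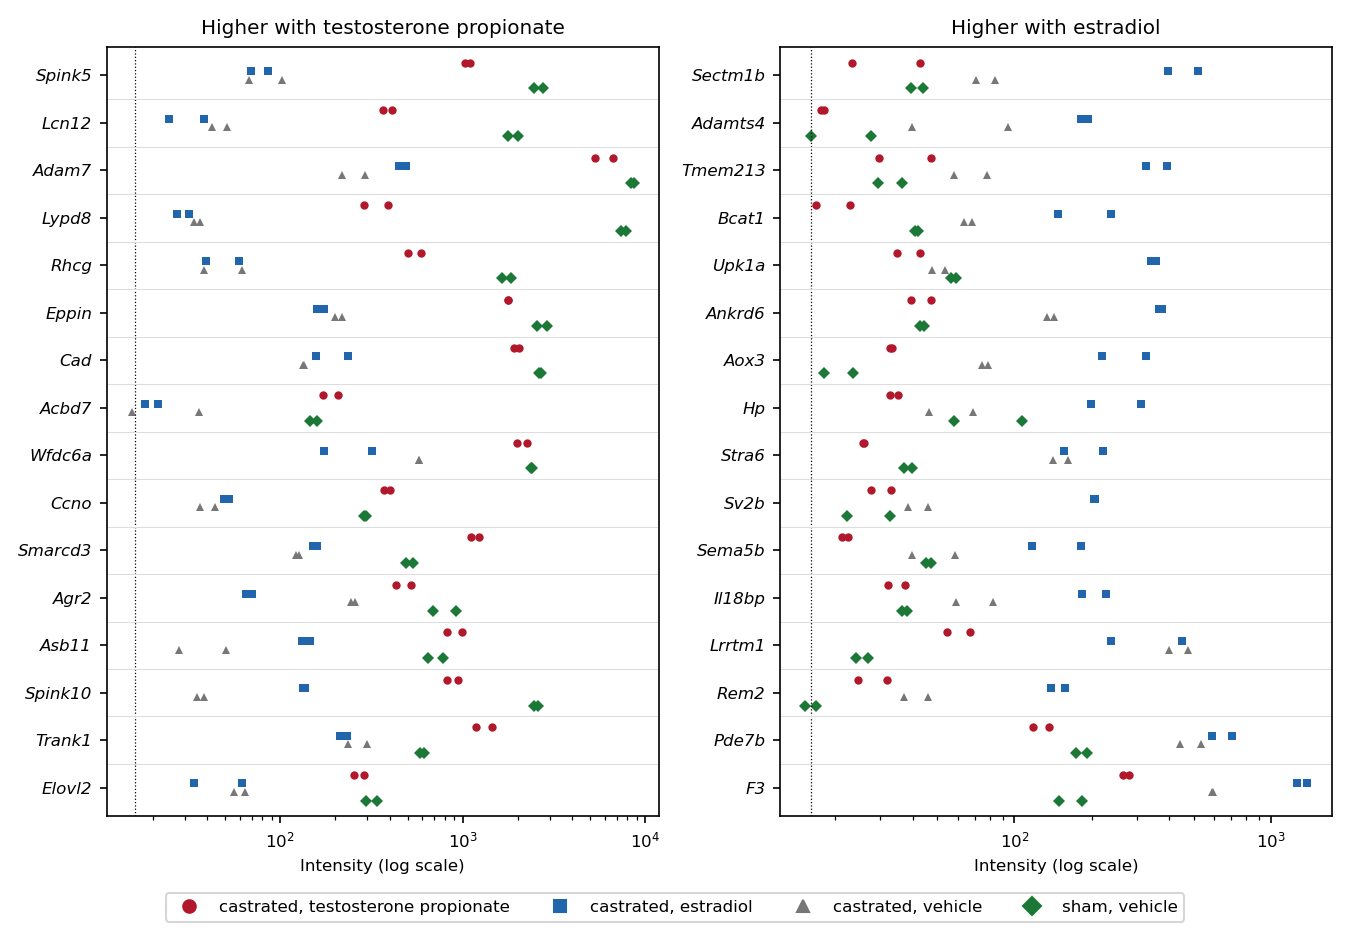
Intensity on a log axis for the 16 largest rises (left) and 16 largest falls (right) among genes past the threshold with all 4 hormone arrays above 16, marked by the dotted line; each symbol is 1 array. In the left panel the red circles of testosterone propionate stand apart from the blue squares of estradiol, which sit near the grey castrated triangles for genes such as Spink5, Rhcg and Smarcd3. In the right panel the estradiol squares are the highest group for genes such as Sectm1b, Upk1a and F3.

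Hpdl, a mitochondrial protein, had the largest rise of all. It had 441 and 412 on the testosterone propionate arrays, while both estradiol arrays were below 16 at 12.6 and 9.75. It was at least 26.6-fold higher (adjusted p = 0.00681), and the sham arrays had 369 and 327. Kcnc4, a voltage-gated potassium channel subunit, had 95.3 and 100.3 with both estradiol arrays below 16, at least 6.11-fold higher (adjusted p = 0.0131). A further probe set of Kcnc4 rose less, by 1.63 on the log2 scale. A further 3 names among the 14 largest rises, Zfp429, Itih2 and 4930528A17Rik, rested on testosterone propionate arrays of 14.1 to 36.3 with both estradiol arrays below 16. Acbd7, an acyl-CoA binding domain protein, had 207 and 172 against 21.4 and 18.2 and was 9.55-fold higher (95% interval 4.68 to 19.5, adjusted p = 0.0351).

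Rises reached regulators and metabolic enzymes as well. Smarcd3, a subunit of the BAF chromatin remodelling complex, had 1226 and 1114 after testosterone propionate against 159 and 151 after estradiol, and was 7.55-fold higher (95% interval 6.12 to 9.30, adjusted p = 0.00712). Ccno, a cyclin-like protein needed to multiply centrioles in multiciliated cells, had 401 and 369 against 52.7 and 49.2 and was 7.56-fold higher (95% interval 5.91 to 9.68, adjusted p = 0.00753). It was the 1 called gene of 23 markers of multiciliated efferent duct cells, whose median difference was -0.27. Asb11, an adaptor of ubiquitin ligases, had 989 and 826 against 131 and 145, and Agr2, an endoplasmic reticulum protein of mucus-secreting epithelia, 434 and 520.3 against 70.1 and 65.3. Agr2 was lower on the estradiol arrays than on the castrated arrays, which had 258 and 246. Elovl2, an elongase of polyunsaturated fatty acids, rose 5.90-fold (adjusted p = 0.0321), with 287 and 254 against 62.2 and 33.6. Smarcd3, Ccno, Asb11, Agr2 and Elovl2 were picked for size after their values were seen.

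Cad, the enzyme that starts pyrimidine synthesis, rose with testosterone propionate and stayed low with estradiol. It had 1902 and 2047 after testosterone propionate and 235 and 158 after estradiol, and was 10.2-fold higher (95% interval 7.15 to 14.7, adjusted p = 0.0131). The castrated arrays stood at 135 and 133 and the sham arrays at 2636 and 2697. Of 36 measured genes of nucleotide synthesis 3 rose (8.33%, beside 2.12% of all genes) and none fell, with a median of 0.06. The other risers belong to mitochondrial one-carbon metabolism, which feeds purine synthesis: Mthfd2 rose 4.32-fold (adjusted p = 0.031) and Shmt2 1.80-fold (adjusted p = 0.043). Mthfd2 had 1205 and 1096 against 209 and 338, and Shmt2 488 and 466 against 258 and 272. Phgdh, which opens serine synthesis, had 1018 and 892 against 441 and 337 and was 2.47-fold higher (adjusted p = 0.0416). It was 1 of 2 genes that rose among 32 of amino acid transport and transfer RNA charging, a share of 6.25% beside 2.12% of all genes. The other was Wars, the tryptophanyl synthetase, at 2933 and 2847 against 1377 and 1392. Of 39 ribosome biogenesis genes and 34 cell cycle genes, limma called 0, with 3 and 5 at an unadjusted p under 0.05. Of 29 oxidative phosphorylation genes it also called 0, with 2 at an unadjusted p under 0.05.

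In the machinery of the secretory pathway, 16 genes rose with testosterone propionate over estradiol and none fell past the threshold. Proteins made for secretion enter the endoplasmic reticulum, are folded there by chaperones and disulfide isomerases, receive sugars and leave in coated vesicles. Of 40 genes of folding and the unfolded protein response 9 rose and none fell past the threshold, and 38 of the 40 differences were positive. Their median difference was 0.54 (log2), beside -0.06 over all genes, and single genes ranged from -1.40 to 1.62. Of 57 genes of translocation, glycosylation and vesicle traffic 7 rose and none fell, 54 differences were positive, and the median was 0.51. Single genes of that list ranged from -0.17 to 1.84. The share called was 22.5% for folding and 12.3% for traffic, beside 2.12% of all genes. Genes with a mean above 500 over the 8 caput arrays, a level many of these genes reach, had a median of 0.05. Of them 57.9% had a positive difference and 5.15% were called. Against castrated vehicle the folding list had medians of 0.60 for testosterone propionate and 0.00 for estradiol, and the traffic list 0.55 and 0.04.

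Creld2, a chaperone-like protein induced by stress of the endoplasmic reticulum, had 2004 and 1979 after testosterone propionate and 634 and 666 after estradiol, and was 3.06-fold higher (95% interval 2.50 to 3.75, adjusted p = 0.0134). The castrated arrays, at 665 and 605, overlapped the estradiol arrays. Manf, a secreted protein that binds the chaperone BiP, had 3709 and 3555 against 1451 and 1463 and was 2.49-fold higher (adjusted p = 0.0174). Herpud1, part of the degradation complex for misfolded proteins, had 2019.9 and 1967 against 856 and 928, and its testosterone propionate arrays were also above the sham arrays, which stood at 1105 and 1143. Its fold was 2.24 (adjusted p = 0.0213). The disulfide isomerase genes Pdia5 and Pdia6 rose 2.69-fold and 1.85-fold, and Erp44 2.07-fold. Ero1b, an oxidase that recharges these isomerases, rose 2.21-fold, with 629 and 511 against 253 and 260.3. The co-chaperones Dnajb11 and Dnajb9 rose 2.19-fold and 2.01-fold. Hspa5, which encodes BiP, the main chaperone of the compartment, had 6658 and 8282 against 4842 and 5130.2 and did not pass (log2 difference 0.58, 95% interval 0.21 to 0.94, adjusted p = 0.136). Hsp90b1 likewise had 4774 and 5075 against 3691 and 3294 (adjusted p = 0.176).

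The traffic members that rose cover successive steps. Gmppb, which makes the GDP-mannose used for glycans, had 363 and 378 against 87.1 and 123 and was 3.58-fold higher (95% interval 2.47 to 5.18, adjusted p = 0.0300). Spcs3, a signal peptidase subunit, had 1357 and 1301 against 568 and 696. Sec23b and Sec24d, subunits of the COPII coat, rose 2.08-fold and 1.93-fold. Kdelr3, a receptor that returns chaperones from the Golgi, had 200.4 and 213 against 96.2 and 97.2 and 67.7 and 78.5 on the sham arrays, below every hormone array. Slc35b1, which carries ATP into the compartment, rose 1.91-fold, and Lman1, a cargo receptor for glycoproteins, had the smallest rise called, 0.74 on the log2 scale. Outside both lists, and picked after the values were seen, Ern1, the stress sensor that splices Xbp1, had 1419 and 1469 against 608 and 512 (log2 difference 1.37, adjusted p = 0.0228). Uggt1, the glucosyltransferase that checks glycoprotein folding, had 936 and 925 against 277 and 327 (1.63, adjusted p = 0.025), and Lman2, another cargo lectin, 1008 and 948 against 272 and 309 (1.75, adjusted p = 0.0183).

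**Figure D3:**
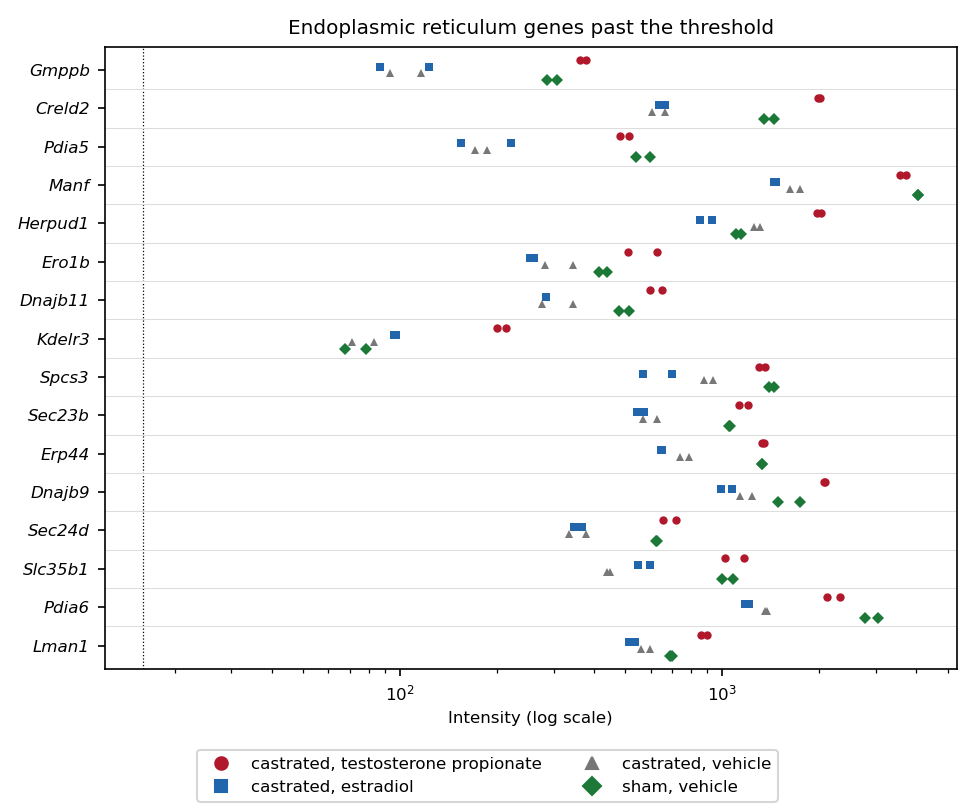
Intensity on a log axis of the 16 genes of the 2 endoplasmic reticulum lists that passed the threshold, with 1 symbol per array; the dotted line marks 16. For each gene both red testosterone propionate circles lie right of both blue estradiol squares, and for genes such as Creld2, Pdia5 and Sec23b the grey castrated triangles lie beside the estradiol squares.

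Promoters of 4 folding genes that rose are shown because each holds a known promoter motif. Genes induced by stress of the endoplasmic reticulum often carry the element ERSE, which is CCAAT and CCACG with 9 bases of any kind between them, or ERSE-II, which is ATTGG, 1 base of any kind and CCACG, both bound by factors of the unfolded protein response. In RefSeq promoters of build GRCm38.p6, from 250 bases before to 50 after each start and on both strands, 0.119% of 32851 promoters held ERSE and 0.0365% ERSE-II. Of the 9 folding genes that rose 8 had a promoter in the table, and 5 of the 8 held one of the motifs, Creld2, Pdia6 and Ero1b with ERSE and Herpud1 and Dnajb11 with ERSE-II. Of the folding genes not called, 27 had a promoter and 7 held one, among them Hspa5, Hsp90b1, Calr and Canx. The 4 promoters below, each on the plus strand, end at the base before the start and have the motif in capitals. For Creld2 (chr15:88819396-88819645) ERSE lies on the opposite strand, 126 to 108 bases before the start, for Pdia6 (chr12:17266339-17266588) 98 to 80 bases before it, for Herpud1 (chr8:94386179-94386428) ERSE-II 52 to 42 bases before it, and for Ero1b (chr13:12565633-12565882) ERSE on the opposite strand 201 to 183 bases before it.
Creld2: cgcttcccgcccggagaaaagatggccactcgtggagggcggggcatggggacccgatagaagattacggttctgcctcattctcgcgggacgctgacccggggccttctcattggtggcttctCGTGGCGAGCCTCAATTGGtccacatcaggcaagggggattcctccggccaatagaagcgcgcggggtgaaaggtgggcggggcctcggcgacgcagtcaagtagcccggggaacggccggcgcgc
Pdia6: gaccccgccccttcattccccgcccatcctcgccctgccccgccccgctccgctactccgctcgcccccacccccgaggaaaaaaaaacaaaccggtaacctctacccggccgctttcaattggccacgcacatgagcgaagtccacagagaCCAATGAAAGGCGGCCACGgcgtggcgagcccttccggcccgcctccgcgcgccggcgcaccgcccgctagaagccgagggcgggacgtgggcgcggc
Herpud1: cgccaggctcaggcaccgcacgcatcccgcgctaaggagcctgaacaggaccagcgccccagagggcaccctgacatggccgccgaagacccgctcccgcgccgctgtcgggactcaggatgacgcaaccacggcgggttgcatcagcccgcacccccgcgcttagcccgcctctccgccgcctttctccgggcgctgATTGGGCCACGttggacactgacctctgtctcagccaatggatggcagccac
Ero1b: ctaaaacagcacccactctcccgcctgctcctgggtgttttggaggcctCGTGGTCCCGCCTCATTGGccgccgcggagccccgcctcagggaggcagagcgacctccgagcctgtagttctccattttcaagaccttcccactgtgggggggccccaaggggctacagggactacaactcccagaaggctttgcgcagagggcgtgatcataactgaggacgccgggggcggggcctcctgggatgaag
These matches describe letters in the window and are not binding sites. The hexamer TGTTCT, which is the core of androgen response elements, stood in 17.3% of the promoters of genes higher with testosterone propionate, in 14.3% of those of genes lower and in 19% of all promoters. The full androgen response element (AGAACA and TGTTCT with 3 bases between) and the full estrogen response element (GGTCA and TGACC with 3 bases between) were in 0.00913% and 0.07% of all promoters and were in 0 promoters of either set.

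Cholesterol synthesis genes had positive differences throughout most of the pathway, but 1 of 20 passed. That share is 5%, beside 2.12% of all genes and 5.15% of those with a mean above 500. The median was 0.71 and 19 of 20 differences were positive. Nsdhl, a sterol dehydrogenase of the late pathway, had 808 and 881 after testosterone propionate and 344 and 342 after estradiol, and was 2.46-fold higher (95% interval 2.01 to 3.01, adjusted p = 0.0183). Fdps, the farnesyl diphosphate synthase, had 845 and 798 against 419.9 and 388 and did not pass (adjusted p = 0.0917), nor did Msmo1, at 568 and 613 against 324 and 319 (adjusted p = 0.119).

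**Figure D4:**
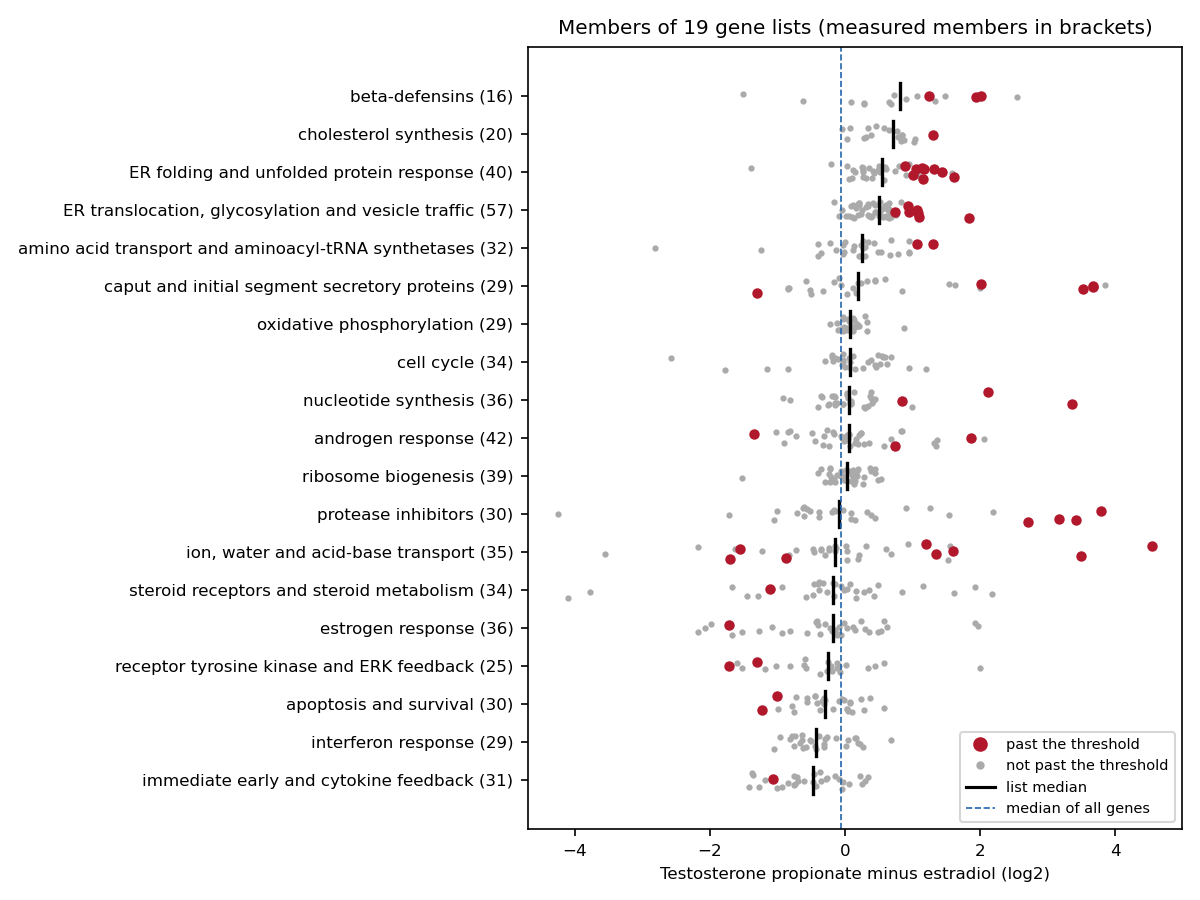
The log2 difference, testosterone propionate minus estradiol, of every measured member of 19 gene lists, with red circles for members past the threshold, grey dots for the others, a black bar at each list's median and a dashed line at the median of all genes, -0.06. The bars of beta-defensins, cholesterol synthesis and both endoplasmic reticulum lists lie between 0.51 and 0.81, and those of interferon response and immediate early genes at -0.43 and -0.48.

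Levels relative to castrated vehicle describe where each hormone group lay. Over the 164 genes the median difference from castrated vehicle was -0.80 (log2) for testosterone propionate and 0.71 for estradiol, and over the 188 higher genes it was 1.12 and -0.14. Both sets of values share the castrated arrays, and the gap between them is the difference by which the genes were selected. From sham the medians were -0.04 and 1.39 for the lower genes and 0.19 and -1.14 for the higher ones. In the same fit 269 genes above 16 (1.99%) differed between testosterone propionate and castrated vehicle and 0 between estradiol and castrated vehicle, where 3011 and 2205 had an unadjusted p under 0.05 and the smallest adjusted p for estradiol was 0.0501.

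Sectm1b, a secreted and membrane immune protein, had 23.3 and 42.7 after testosterone propionate and 522 and 396 after estradiol, and was 14.4-fold lower (95% interval 8.16 to 25.4, adjusted p = 0.0177). Its castrated arrays had 84.2 and 70.7 and its sham arrays 39.6 and 43.9, so the estradiol arrays were the highest of the 4 groups. Upk1a, a tetraspanin of the bladder lining, had 34.8 and 42.9 against 358 and 342 and was 9.04-fold lower (95% interval 6.98 to 11.7, adjusted p = 0.00748). Beside the estradiol arrays the other groups were low, with 47.6 and 53.4 in castrated and 59.2 and 56.5 in sham caput. F3, tissue factor, which starts blood clotting, had 279 and 265 against 1269 and 1385 and was 4.88-fold lower (95% interval 3.80 to 6.26, adjusted p = 0.0131). Its castrated arrays at 590.4 and 595 lay between the hormones. Bcat1, a branched-chain aminotransferase, had 16.8 and 22.9 against 237 and 148 and was 9.55-fold lower (95% interval 5.93 to 15.4, adjusted p = 0.0177). Ankrd6, an adaptor of Wnt signalling, had 39.4 and 47.4 against 367 and 375 and was 8.58-fold lower (95% interval 6.80 to 10.8, adjusted p = 0.00712). Phlda1, an early response gene, had 691 and 751 against 2429.7 and 2308, 3.29-fold lower (adjusted p = 0.0134).

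Adamts4, a protease that cleaves aggrecan, had a mean of 17.8 ± 0.323 after testosterone propionate (SD, n = 2), just above 16, and 188 ± 8.20 after estradiol, and was 10.6-fold lower (95% interval 4.69 to 23.8, adjusted p = 0.039). Tmem213 had 29.5 and 47.1 against 393 and 325 and was 9.59-fold lower (95% interval 5.71 to 16.1, adjusted p = 0.0183). For 7 others of the 14 largest falls, Gm7444, Pck1, Vtcn1, Slc6a2, 1700016C15Rik, Amn and Dkkl1, both testosterone propionate arrays were below 16. Nkain1 was also below 16 there, and was at least 3.79-fold lower than on the estradiol arrays. The bounds of the 7 ran from at least 1.10-fold for Slc6a2 to at least 4.10-fold for Dkkl1. Another Slc6a2 probe set above 16 differed by -0.25 on the log2 scale. Htr5b, a serotonin receptor, had 10.6 and 22.3 against 244 and 146, with 1 testosterone propionate array below 16.

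Further falls were picked after the values were seen, 3 of them in genes of vitamin A handling, for which no list was counted. Stra6, the cell surface receptor that takes up retinol, had 25.6 and 25.9 after testosterone propionate and 221 and 156 after estradiol, 7.23-fold lower (adjusted p = 0.0131). Lrat, which stores retinol as esters, had 41.8 and 50.6 against 184 and 243, 4.60-fold lower (adjusted p = 0.0177). Rdh10, which oxidises retinol, had 165 and 185 against 421 and 467 (log2 difference -1.34, adjusted p = 0.0465). Relative to castrated vehicle Stra6 differed by -2.56 with testosterone propionate and 0.30 with estradiol, while Lrat differed by -0.05 and 2.16, so these 2 falls had different hormones away from the castrated level. The membrane-anchored chemokines Cxcl16 and Cx3cl1 were both lower, at 75.1 and 74.2 against 277 and 403 for Cxcl16 and 275 and 243 against 615 and 507 for Cx3cl1. The stanniocalcins Stc1 and Stc2, secreted glycoprotein hormones, were lower too. Stc1 had 139 and 155 against 415 and 390.4 (log2 difference -1.45, adjusted p = 0.0308). Vegfa, the vascular growth factor, had 61.7 and 75.4 against 162 and 182 (-1.33, adjusted p = 0.0341).

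Among 42 measured genes of the androgen response list, 2 rose with testosterone propionate over estradiol and 1 fell, with a median difference of 0.05. The share called was 7.14%, beside 2.12% of all genes. Fkbp5, a co-chaperone of steroid receptors and a known androgen and glucocorticoid target, had 1819 and 1717 against 503 and 473 and was 3.62-fold higher (95% interval 2.93 to 4.48, adjusted p = 0.0131). Its castrated arrays had 602 and 557 and its sham arrays 1540.2 and 1715, so both testosterone propionate arrays were above both sham arrays. The other riser was Lman1. Tmprss2, a surface protease known as an androgen target in human prostate, went the other way, at 107 and 128 after testosterone propionate against 266 and 335 after estradiol (2.56-fold lower, adjusted p = 0.043). Its sham arrays, at 45.9 and 58.8, were lower still.

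Of 36 genes of the estrogen response list, 1 was lower with testosterone propionate than with estradiol and none was higher past the threshold. The 1 call is a share of 2.78%, near the 2.12% of all genes. The median difference was -0.18, beside -0.06 over all genes. Of the 36 differences 24 were negative, where 44.1% of all genes had a positive one. Stc2 had 159 and 119 after testosterone propionate and 471 and 436 after estradiol, and was 3.30-fold lower (95% interval 2.32 to 4.67, adjusted p = 0.0304). The testosterone propionate arrays overlapped the castrated arrays, which had 134 and 148. Pgr, the progesterone receptor and a classical estrogen target, had 25.1 and 30.1 against 72.9 and 105 without overlap but did not pass (log2 difference -1.67, 95% interval -2.37 to -0.98, adjusted p = 0.0555). Greb1, an estrogen receptor cofactor, had 153 and 242 against 371 and 448 (adjusted p = 0.172). Rara had 25.8 and 19.8 against 129 and 70.4 (log2 difference -2.08, adjusted p = 0.0949), and Myc 44.5 and 45.2 against 138 and 120 (-1.52, adjusted p = 0.200). Aqp5 differed by -2.17 and Muc1 by -1.98 without overlap, with at least 1 testosterone propionate array of each below 16, and neither passed. Other members that did not pass lay the opposite way without overlap. Ramp3, a receptor activity modifying protein, had 210.4 and 209 against 57.2 and 50.6 (log2 difference 1.96, adjusted p = 0.0859), and Sult1e1, which inactivates estrogens by sulfation, had 115 and 181 against 46.4 and 31.3 (1.92, adjusted p = 0.167). Esr1, which encodes estrogen receptor alpha, had 822 and 1097 against 1126 and 1028, a difference of -0.18 with a 95% interval of -0.66 to 0.30.

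Odam, Rnf152 and Gng4 are described with their castrated levels, to which the testosterone propionate arrays stood nearer than the estradiol arrays, as in Upk1a, Defb21, Defb1 and Slc26a3. Odam, a secreted protein of junctional epithelium, had 79.0 and 67.4 after testosterone propionate, 14.6 and 16.4 after estradiol and 71.3 and 80.4 in castrated caput, and was 4.73-fold higher (95% interval 3.68 to 6.08, adjusted p = 0.0131) with testosterone propionate than with estradiol. Rnf152, a lysosomal ubiquitin ligase, had 151 and 138, 59.4 and 54.6 and 194 and 194 in the same groups and a fold of 2.54 (adjusted p = 0.0177). Gng4, a G protein subunit, had 608 and 612 against 321 and 306, with 748 and 738 in castrated and 134 and 143 in sham caput. These 3 genes had been chosen with earlier results on these arrays known. A different pattern was that of Col1a1, the collagen chain, which did not pass: 340.3 and 337 against 481 and 281, with a 95% interval of -0.81 to 0.58 on the log2 scale, and 88.2 and 81.3 in castrated caput. Adra2c, an adrenergic receptor, was also above its castrated arrays of 43.7 and 38.6 in both groups, at 139 and 145 against 218 and 245 (adjusted p = 0.0927).

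Ion and acid-base transporters, which set the composition of the luminal fluid, changed in both directions. Of 35 measured members 5 rose and 3 fell (22.9% called, beside 2.12% of all genes), with a median of -0.15. Rhcg, an ammonia transporter, had 503 and 592 after testosterone propionate and 59.9 and 39.0 after estradiol, and was 11.3-fold higher (95% interval 6.49 to 19.6, adjusted p = 0.0183). Slc26a3, a chloride and bicarbonate exchanger, had 686 and 664 against 233 and 212 and was 3.03-fold higher (adjusted p = 0.0344). Its castrated arrays had 591 and 450.1 and its sham arrays 198 and 153, so the estradiol arrays were the ones near sham. Car14, a carbonic anhydrase, and Kcnk1, a potassium channel, rose 2.54-fold and 2.28-fold. Cftr, the chloride channel mutated in cystic fibrosis, had 88.4 and 78.0 against 253 and 237 and was 2.95-fold lower (adjusted p = 0.0216). Slc8a1, a sodium and calcium exchanger, fell to 22.2 and 24.4 after testosterone propionate, against 93.6 and 61.4 after estradiol and 163 and 172 in castrated caput. Kcnq1, a potassium channel subunit, fell 1.83-fold.

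Immediate early genes and those of feedback on growth factor signals had mostly negative differences with few calls. Of 31 measured immediate early and cytokine feedback genes 1 fell, Gadd45b, and 26 differences were negative, with a median of -0.48. The 1 call is a share of 3.23%, near the 2.12% of all genes, and 44.1% of all genes had a positive difference. Gadd45b, a growth arrest gene, had 82.3 and 77.3 against 156 and 178, 2.09-fold lower (adjusted p = 0.0416), and its castrated arrays were above both at 229.9 and 284. Fos had 138 and 208 against 638 and 260.3 and did not pass (adjusted p = 0.386). Of 25 genes of ERK feedback 2 fell (8%, beside 2.12% of all genes), Phlda1 and Ros1, with a median of -0.26. Of 30 apoptosis genes 2 fell (6.67%) and none rose past the threshold, with a median of -0.30. These were the death-promoting genes Bid, at 111 and 103 against 249.6 and 254, and Bik, at 36.2 and 39.0 against 68.1 and 83.6 (2.01-fold lower, adjusted p = 0.0414). Of 29 interferon response genes limma called 0, with 9 at an unadjusted p under 0.05 and a median of -0.43. Hsd17b11, a dehydrogenase of steroids and lipid droplets, was the 1 called gene of 34 in steroid reception and metabolism, at 1089.7 and 1175 against 2459 and 2429 (2.16-fold lower, adjusted p = 0.0309). That call is a share of 2.94%, near the 2.12% of all genes, and 11 of the 34 were at 16 or less on all 4 arrays.

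The labelled tissue was checked by its markers. Of 15 marker lists, 10 had a lower summed intensity on both testosterone propionate arrays than on either estradiol array, 3 had a higher one and 2 overlapped. Among single genes above 16, 54.6% had no overlap between the hormone groups. The 10 were those of basal cells, fibroblasts, macrophages, lymphocytes, endothelium, adipocytes, sperm, Leydig and Sertoli cells, urothelium and red blood cells, and the 3 those of principal cells, clear and narrow cells and accessory glands. Single genes carried some of these sums, as a sum without the called marker, chosen after seeing the data, showed. Without Adam7 the principal cell sums overlapped, at 15625 and 19493 after testosterone propionate against 18806 and 16232 after estradiol. Without Rhcg the clear and narrow cell sums were lower after testosterone propionate, at 1749.7 and 1680.5 against 2066 and 2099. Without Cav1 the basal cell sums overlapped, at 2354 and 1752 against 1993 and 1825, and the median difference of that list was 0.03 (log2). Without Ccno the multiciliated sums were lower after testosterone propionate, at 1638 and 2163 against 2349 and 2304. Medians of single genes were positive for Leydig and Sertoli cells (0.16) and red blood cells (0.26), opposite to their sums. Several of the 10 sums held dim genes. At 16 or less on all 4 arrays were 2 of 3 red blood cell, 5 of 10 Leydig and Sertoli, 7 of 23 sperm and 4 of 15 lymphocyte markers. Red blood cell sums were 22.6 and 27.7 after testosterone propionate against 53.0 and 28.7 after estradiol. Fibroblast markers summed to 13262 and 14410.1 after testosterone propionate against 17501 and 15312 after estradiol, and macrophage markers to 7077 and 7113 against 7656 and 8058. In castrated caput the fibroblast sums were 11757 and 13030. The macrophage sums there were 6585 and 8646, on either side of all 4 hormone arrays. The part of these cell types in the genes that rose or fell was not tested. All 10 measured principal cell markers were above 16, with summed intensities of 20925 and 26198 on the testosterone propionate arrays and 19255 and 16724 on the estradiol arrays, and Adam7 was the 1 called. The 9 measured adipocyte markers summed to 1254 and 1081, against 2230 and 4329 after estradiol and 653 and 3033 in castrated caput. Pck1 was the adipocyte marker called, with both testosterone propionate arrays below 16 and 32.6 and 37.9 after estradiol. Adipoq had 80.7 and 74.8 against 314 and 682 (adjusted p = 0.261), and Lep was at 16 or less on all 4 arrays. Urothelial markers summed to 802 and 759.7 against 1424 and 1437, with Upk1a the 1 called of 8 and Upk3a and Psca at 16 or less. The 9 basal cell markers summed to 3439 and 3005 after testosterone propionate, against 4569 and 4598 after estradiol, and Cav1, caveolin, was the 1 that fell, at 1084 and 1253 against 2576 and 2773. The 10 clear and narrow cell markers summed to 2252 and 2272 against 2126 and 2138, and Rhcg was the 1 called.

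The 23 sperm and germ cell markers summed to 556 and 546 after testosterone propionate, against 1049 and 589 after estradiol, and to 9720.3 and 2901 in sham caput. Of these markers limma called 0, with 6 at an unadjusted p under 0.05. For smooth muscle, fibroblasts, macrophages, lymphocytes, endothelium, Leydig and Sertoli cells, accessory glands and red blood cells it also called 0, with 0, 3, 6, 0, 1, 2, 2 and 0 genes at an unadjusted p under 0.05. Lymphocyte markers summed to 707 and 991 against 1100.5 and 1518, and endothelial markers to 846 and 782 against 1133 and 905. Castrated caput had 749 and 1791 for lymphocytes and 907 and 906 for endothelium. Of 10 seminal vesicle and prostate markers 8 were at 16 or less on all 4 arrays.

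**Figure D5:**
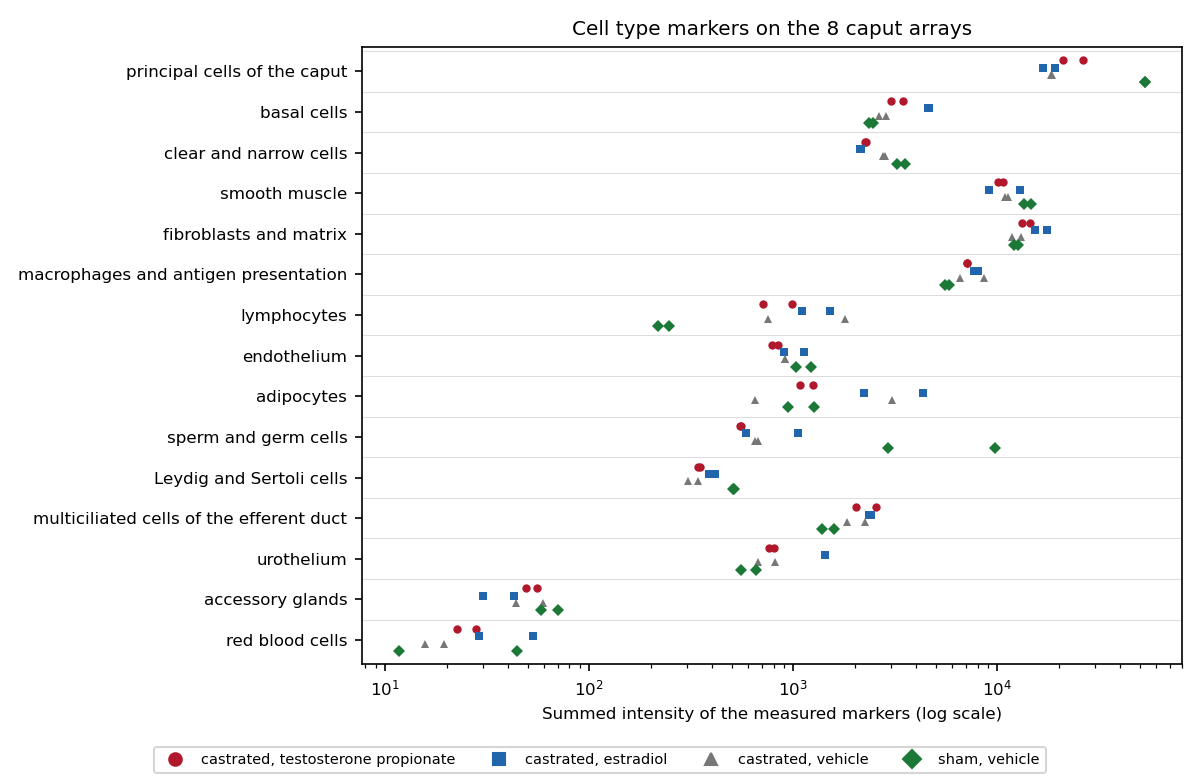
Summed intensity of the measured markers of 15 cell types on a log axis, with 1 symbol per caput array. Testosterone propionate circles lie left of estradiol squares without overlap for 10 of the lists, among them adipocytes, urothelium and basal cells, and right of them for 3, and sham diamonds stand far right for sperm and germ cells.

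The efferent duct arrays show the same 2 hormones in the neighbouring tissue, with another labelling kit, so tissue and kit change together. Over the 188 genes higher with testosterone propionate in caput, the median difference in duct was 0.62 (log2) and 166 had the same sign. Over the 164 lower genes the median in duct was -0.43 and 129 had the same sign. Over all genes above 16 in caput the duct median was 0.05 and 57.2% were positive. In a fit of the 8 duct arrays alone limma called 0 genes (1467 at an unadjusted p under 0.05), and in the fit of all 16 arrays it called 132 for the same duct comparison. Secretory genes differed between the duct replicates: Adam7 had 1007 and 105 on the testosterone propionate duct arrays and 13.8 and 88.6 on the estradiol ones, and Defb41 595 and 17.4 against 21.4 and 156. Eppin had 429 and 75.4 against 24.8 and 70.3. The first testosterone propionate duct array was thus the highest for these 3 caput genes, and its part in the duct values was not tested.

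The difference between the tissues was tested over all 16 arrays. It passed for 9 of 18194 genes (0.0495%), 7 of them above 16 in caput. Hk2, a hexokinase that commits glucose to metabolism, had 739 and 745 against 236 and 266 in caput and 403 and 354 against 409 and 404 in duct. The caput difference exceeded the duct difference by 1.67 on the log2 scale (95% interval 1.29 to 2.05, adjusted p = 0.042). Cxcl16 was lower with testosterone propionate in caput, while in duct it had 222 and 199.6 against 235 and 256, a tissue difference of -1.94 (95% interval -2.51 to -1.38, adjusted p = 0.0495). A fit without 1 hormone array leaves 1 array in its group. The 7 genes above 16 in caput, Hk2 and Cxcl16 among them, did not pass in any fit without 1 caput hormone array. Without 1 duct hormone array, only Hk2 and 1700110K17Rik of the 7 passed again. They did so only in the fit without the second duct testosterone propionate array.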

How the data were processed

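Mouse arrays of 45101 probe sets measured RNA of the caput and the efferent duct in 4 groups of 2 arrays per tissue. The deposited values are intensity values on a linear scale, 1 table per series. RMA is named per the submitters' processing notes, with no version. The deposited columns share a 2%-trimmed mean but not their quantiles, and whether RMA made these values was not settled. Per the labels' protocols, RNA was taken up in TRIzol, and 10 µg of caput RNA or 50 ng of duct RNA was labelled with different kits.

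Of the probe sets 34958 carried 1 gene symbol, 932 several and 9211 none. Each gene was read from its brightest single-symbol probe set, giving 18194 genes. The log2 of the intensity was taken here, and limma 3.58.1 in R 4.3.3 was fitted to the 8 caput arrays with lmFit and eBayes, with Benjamini-Hochberg adjustment over all 18194 genes. Every adjusted p and interval in the text comes from this fit unless another is named. A gene is described where a hormone group's mean is above 16. A group with both arrays under 16 is given as below 16 and its fold as a bound against 16. The tissue difference came from a fit of all 16 arrays. The number of arrays limits the precision: the median 95% half-width was 0.46 on the log2 scale. The fit was tested on simulated data. Figures were drawn with matplotlib 3.10.9, from tables made with pandas 2.3.3 (Python 3.11.15).

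The genes named are the 14 largest rises and 14 largest falls past the threshold, up to 4 called members of each of 34 gene lists, a set of fixed genes and the largest tissue differences. The comparison, lists and fixed genes were chosen with earlier results of these data known. Named after their values were seen were Smarcd3, Ccno, Asb11, Agr2, Elovl2, F3, Ankrd6, Ern1, Uggt1, Lman2, Stra6, Lrat, Rdh10, Cx3cl1, Cxcl16, Stc1, Vegfa, Ramp3, Sult1e1 and the genes given as examples that did not pass. The motif search and the 4 promoters shown were also chosen then, in place of promoters of the largest changes. Alternatives covered normalization, filters on dim genes, a floor, the probe set rule, the variance prior, the arrays fitted, the replicate block, left-out arrays and the threshold.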

Additional observations from a re-analysis of the deposited data

Results flagged for a closer look

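In 7 genes above 16 in caput the difference between testosterone propionate and estradiol itself differed between caput and efferent duct by limma's interaction term over 16 arrays. The values are caput minus duct on the log2 scale, and tissue and labelling kit change together. These 7 genes did not pass in any fit that left out 1 caput hormone array. For Hk2 the value was 1.67 (adjusted p = 0.042), with a caput difference of 1.57 and a duct difference of -0.10. For Cxcl16 it was -1.942 (adjusted p = 0.0495), with differences of -2.16 in caput and -0.22 in duct. For Bid it was -1.515 (adjusted p = 0.0495), with arrays of 111 and 103 against 249.6 and 254 in caput and 258 and 238 against 193 and 215 in duct. For Myof, a membrane repair protein, it was -1.548 (adjusted p = 0.0495), with 282 and 257 after testosterone propionate against 529 and 617 after estradiol in caput, and 194 and 186 against 125 and 152 in duct. For Med9os it was -1.929 (adjusted p = 0.0478), with 24.7 and 22.5 against 60.5 and 48.4 in caput and 116 and 125 against 62.5 and 83.5 in duct. For 1700110K17Rik it was -2.177 (adjusted p = 0.042), with a difference of -0.41 in caput that did not pass (adjusted p = 0.262), and 178 and 233 against 54.2 and 66.2 in duct. For Itih2, a plasma protein that binds hyaluronan, it was 4.115 (adjusted p = 0.0495), with 24.6 and 20.4 in caput after testosterone propionate and both caput estradiol arrays below 16, against 24.9 and 28.2 and then 37.8 and 26.9 in duct.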

How the results depend on the processing

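Of the 352 genes that differed between the hormones, 188 were higher and 164 lower after testosterone propionate. No alternative reversed any of 93 named genes past the threshold, but most could not have done so. The hormone arrays of these genes did not overlap, so leaving out 1 array or setting a floor could not change a sign. Filters, priors, the replicate block and the choice of arrays fitted leave the difference itself as it is. Quantile normalization and the mean of all probe sets could have changed a sign. Other genes past the threshold, some of them named in the text, were not checked for a change of sign. The counts in all, higher and lower were 308, 170 and 138 with quantile normalization, 331, 174 and 157 with a robust prior and 414, 196 and 218 with all 16 arrays in 1 fit. They grew to 928, 427 and 501 without genes of a mean of 16 or less, 757, 359 and 398 over genes above 16 in a group mean, and 1268, 586 and 682 without the 40% dimmest genes, where fewer genes were tested. They were 781, 392 and 389 with values under 16 set to 16, and 1372, 683 and 689 with an intensity trend in the prior. They shrank to 141, 82 and 59 with the mean of all probe sets, to 7, 5 and 2 at an adjusted p under 0.01, and to 0, 0 and 0 with only the 4 hormone arrays, where fewer samples set the spread. Leaving out 1 array gave 0 to 80 genes in all, 0 to 49 higher and 0 to 31 lower, and a group left with 1 array was assumed to vary like the others. With the replicate block the counts were 9, 7 and 2. Deviations of same-numbered arrays correlated from -0.0811 to 0.0529 over 13154 genes, so the numbers are not taken as pairs. The 9 tissue differences became 1 with quantile normalization, 4 with a robust prior, 0 by averaging each gene's probe sets, 0 under the replicate block and 0 at an adjusted p under 0.01. They became 56 without the 40% dimmest genes, 207 with values under 16 set to 16 and 64 with an intensity trend, and 0 to 22 when 1 array was left out. Where no construction is named, the cause was not tested. Of 33 named genes that did not pass, the difference changed sign for 7 when 1 array was left out, and other genes were not counted. Over the left-out arrays it ran from -0.388 to 0.0285 for Esr1 (reversed without the first testosterone propionate array), from -1.13 to 0.26 for Lmod1 (without the second), from -0.42 to 1.30 for Lcn8, from -0.51 to 0.27 for Col1a1 and from -0.593 to 0.0345 for Myh11 (without the first estradiol array), and from -0.0519 to 1.75 for Lcn5 and -0.15 to 2.53 for Aurka (without the second). Of the same 93 genes, 41 had 69 other probe sets above 16, and these 69 had the same sign on the same arrays. Genes near 16 have signal close to background, which limits their precision.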
